A study of Mus musculus with 6 samples.

Results

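The Egr and Nr4a genes are 7 immediate early transcription factor genes, Egr1, Egr2, Egr3 and Egr4 and Nr4a1, Nr4a2 and Nr4a3, and they were taken by gene symbol from count tables of 23282 entries. Each of the 7 was present as a single entry and passed the filter on low counts, which left 15239 genes to test. The RNA came from forebrain hemispheres of male C57BL/6J mice aged 8 to 10 weeks, without olfactory bulb and cerebellum, and the titles name the 6 libraries as separate biological replicates. In the group labelled WAS (water avoidance stress, n = 3), each mouse had stood for 1 h on a small platform surrounded by water, and in the group labelled control (n = 3) the platform stood in a dry container for the same 1 h. The study's methods state that the mice were killed directly afterwards, while a figure legend of the study places sampling 1 h after the stress, so that the time of sampling is uncertain. No mice left in their home cage are among the samples. The count columns are headed WC for the group labelled WAS and WS for the group labelled control, terms that the sources used here do not define. The groups follow the sample labels, and an exchange of the labels would reverse every direction given below.

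Immediate early genes are transcribed within minutes of synaptic activity, from transcription factors that are already present in the cell. Calcium and MAP kinase signals act on SRF with its ternary complex partners at CArG boxes and on CREB at cyclic AMP response elements (CRE). The Egr proteins are zinc finger activators that bind a GC-rich site and are held back by the Nab corepressors. The Nr4a proteins are orphan nuclear receptors that act without a known classical ligand. In brain, Egr1 is widely used as a marker of neuronal activity, Egr2 is also needed for hindbrain segmentation and for myelination by Schwann cells, Egr3 is needed for muscle spindle development and Nr4a2 (Nurr1) is needed for the making and upkeep of midbrain dopamine neurons.

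The promoter windows of Nr4a1, Nr4a2, Nr4a3 and Egr2 are shown because the first 3 share a repeated CRE core and the fourth carries a CArG box. They are RefSeq windows of build GRCm38.p6, from 250 bases before to 50 after a start site, and 5 of the 7 genes had a window that is considered here. Capitals mark the CRE core TGACG on either strand, so that the reverse strand appears as CGTCA, and the CArG box.
Nr4a1 (chr15:101266596-101266895, plus strand): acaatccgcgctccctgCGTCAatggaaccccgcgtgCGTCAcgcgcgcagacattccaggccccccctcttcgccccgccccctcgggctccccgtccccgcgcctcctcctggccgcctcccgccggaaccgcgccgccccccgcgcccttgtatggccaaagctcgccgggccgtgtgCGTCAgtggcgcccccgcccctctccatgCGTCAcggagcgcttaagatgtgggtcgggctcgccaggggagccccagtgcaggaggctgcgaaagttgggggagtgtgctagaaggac
Nr4a2 (chr2:57123954-57124253, minus strand): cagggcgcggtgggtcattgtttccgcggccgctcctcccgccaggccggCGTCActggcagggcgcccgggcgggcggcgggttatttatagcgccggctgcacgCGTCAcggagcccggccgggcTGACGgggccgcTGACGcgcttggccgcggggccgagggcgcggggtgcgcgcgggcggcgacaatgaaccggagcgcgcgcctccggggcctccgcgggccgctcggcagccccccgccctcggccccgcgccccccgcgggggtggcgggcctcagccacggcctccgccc
Nr4a3 (chr4:48045055-48045354, plus strand): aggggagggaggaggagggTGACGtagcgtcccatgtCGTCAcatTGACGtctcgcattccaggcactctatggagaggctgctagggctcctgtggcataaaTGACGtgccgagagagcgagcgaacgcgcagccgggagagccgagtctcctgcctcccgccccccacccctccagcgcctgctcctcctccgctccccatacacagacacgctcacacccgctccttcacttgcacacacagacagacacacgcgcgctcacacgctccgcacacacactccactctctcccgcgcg
Egr2 (chr10:67537619-67537918, plus strand): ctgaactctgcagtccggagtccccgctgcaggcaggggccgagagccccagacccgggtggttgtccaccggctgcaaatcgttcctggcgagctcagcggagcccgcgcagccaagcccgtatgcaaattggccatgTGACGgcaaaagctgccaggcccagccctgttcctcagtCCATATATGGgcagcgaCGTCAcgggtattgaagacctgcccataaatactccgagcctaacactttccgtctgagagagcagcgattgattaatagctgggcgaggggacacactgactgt
Each of the Nr4a windows held 4 CRE cores, a number reached by 0.231% of the 32851 windows in the table, while 20.8% held at least 1. Overlapping matches were counted separately. The Nr4a windows differed in where the cores lay. In Nr4a1 the first base of the cores stood at positions -233, -213, -69 and -40 from the start site, in Nr4a2 at -200, -144, -123 and -111 and in Nr4a3 at -231, -213, -205 and -147. Egr2 had 5 such windows, and the one shown was chosen because it held the most marked matches, a CArG box at -72 and CRE cores at -111 and -55. A CArG box was found in 1.63% of all windows. The single Egr4 window (chr6:85513540-85513839) held 2 CRE cores, at -177 and -109, and no CArG box. No full CRE of the letters TGACGTCA, present in 1.79% of all windows, lay in these 5 windows. The Nr4a recognition sequence AAAGGTCA, present in 1.51% of windows, was also not found in the 5. An Egr site, GCGGGGGCG or GCGTGGGCG on either strand, was found in 3.47% of windows and, among the 5, at -60 of Nr4a1. These matches describe letters in the windows and were not tested for binding.

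Values are given in the order of replicates 1, 2 and 3 of each label, written as WAS 1 to 3 and control 1 to 3. The libraries held between 9248520 and 10502029 counts, and the 45S ribosomal RNA gene took between 4.96% and 7.32% of them. Values are CPM, that is counts scaled to the library total, and 95% counting intervals from the Poisson distribution accompany them in the plot of levels by library. The counts are 3′ tags, so that levels are compared between libraries and not between genes. General neuron markers summed to between 5072 and 6364 CPM, and Snap25, which encodes a synaptic fusion protein, was at 1159 to 1836 CPM. The libraries differed in their levels of region markers. The sum of 9 striatal markers was 183, 2130 and 414 CPM for WAS 1 to 3 against 1064, 1346 and 1457 CPM for control 1 to 3. Choroid plexus markers summed to 52.9 CPM in WAS replicate 1 and 16.6 CPM in control replicate 2, against 928 to 1242 CPM in the other 4 libraries. In whole tissue, fewer cells of a type and less RNA per cell cannot be told apart.

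In edgeR's quasi-likelihood fit, with p-values adjusted after Benjamini and Hochberg, none of the 7 genes passed an adjusted p of 0.05, where the share over all genes tested was 0% (0 of 15239). DESeq2 called 22 of all genes, of which Egr1 was 1, and limma on quantile-normalized values called 0. At an unadjusted p under 0.05, Nr4a2 was higher in the libraries labelled WAS, against 3.85% of all genes in that direction, and Egr1 and Egr3 were lower, against 3.4% of all genes (1104 genes in both directions together). The same 2 shares apply to the counts at this p given below for lists of genes, where all libraries were fitted with edgeR. A fold change of at least 1.5 with that p was met by 1 of the 7, Nr4a2. Over all genes, 1.82% met both conditions as higher and 0.676% as lower. The 2 groups were fully apart for Egr2, which was higher in those labelled WAS, against 8.42% of all genes. They were also apart for Egr1 and Egr3, which were lower, against 3.76% of all genes. For a single gene, the smallest p of an exact two-sided permutation test with 3 libraries a group is 0.1, which was the value for these 3 genes.

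**Figure D1:**
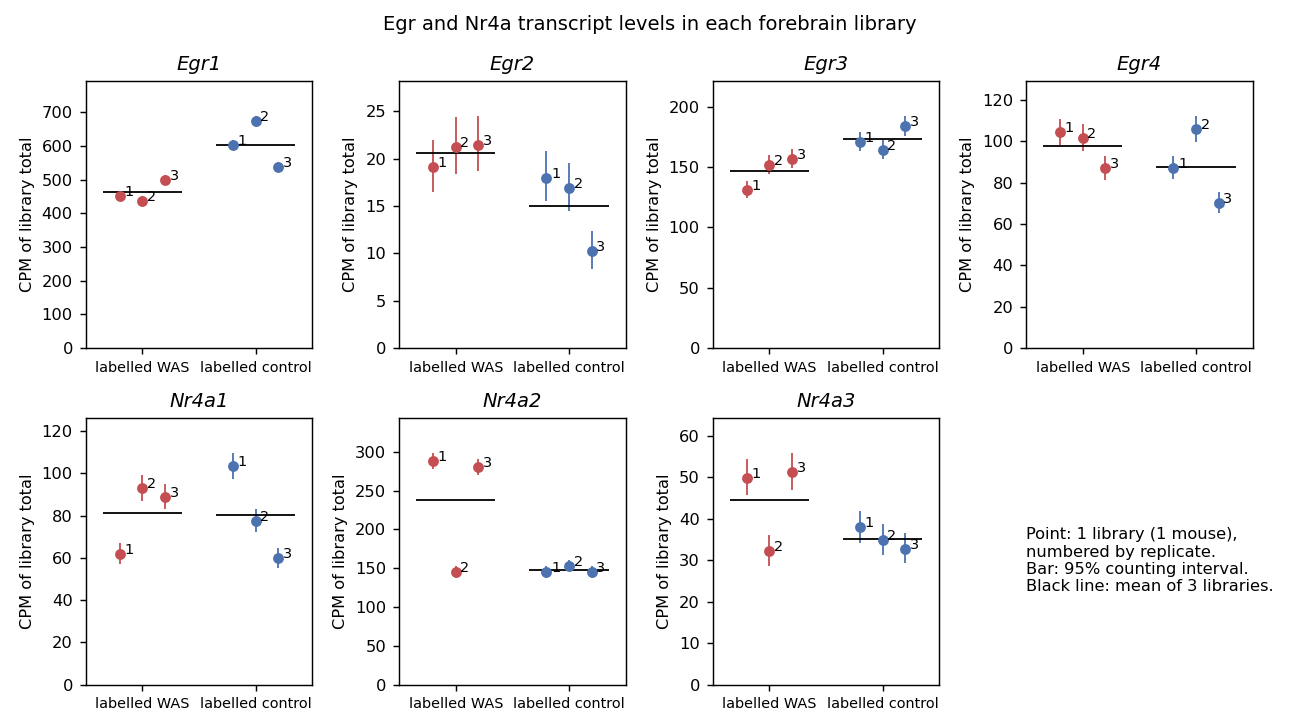
Level of each Egr and Nr4a gene in each library, in CPM of the library total on a linear axis from 0, with the replicate number beside each point, the 95% counting interval as a bar and the mean of 3 libraries as a line. The groups are apart for Egr1, Egr2 and Egr3, while WAS replicate 2 lies with the control libraries for Nr4a2 and Nr4a3.

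Egr1 was the member with the smallest p. It was measured at 453, 437 and 500 CPM for WAS 1 to 3 against 603, 674 and 537 CPM for control 1 to 3. All libraries labelled WAS lay below all those labelled control. The means were 463 ± 33.1 CPM (SD, n = 3) and 604 ± 68.5 CPM (SD, n = 3). The log2 fold change was -0.42 (standard error 0.097, 95% interval -0.63 to -0.21, adjusted p = 0.477 by edgeR with Benjamini-Hochberg adjustment, unadjusted p = 0.00111). Leaving out any 1 library gave values from -0.49 to -0.33, and it was -0.51 when WAS replicates 1 and 3 were both left out. With DESeq2 the adjusted p of Egr1 was 0.0407, while over the 12 alternatives it ran from there to 0.9998.

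Egr3, which activity induces in many of the same forebrain neurons as Egr1, was also lower in the libraries labelled WAS. Its levels were 131, 152 and 157 CPM for WAS 1 to 3 against 171, 164 and 184 CPM for control 1 to 3. The groups did not overlap, with WAS replicate 3 and control replicate 2 the nearest to each other. The means were 147 ± 13.7 CPM (SD, n = 3) and 173 ± 9.90 CPM (SD, n = 3), and the log2 fold change was -0.28 (standard error 0.094, 95% interval -0.48 to -0.070, adjusted p = 0.585 by edgeR with Benjamini-Hochberg adjustment). Without control replicate 3, which had the highest level, the unadjusted p of Egr3 was 0.0568, and with limma it was 0.0700.

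Egr2 stood on the other side. It was measured from few counts, 192, 196 and 214 for WAS 1 to 3 against 189, 175 and 102 for control 1 to 3. As CPM these were 19.1, 21.2 and 21.4 against 18.0, 16.9 and 10.2. The groups did not overlap, but the counting interval of WAS replicate 1 (16.5 to 22.0 CPM) covered the values of control replicate 1 and control replicate 2. The log2 fold change of Egr2 was 0.42 (standard error 0.19, 95% interval -0.0053 to 0.84, adjusted p = 0.689 by edgeR with Benjamini-Hochberg adjustment, unadjusted p = 0.0525). Control replicate 3 was the lowest library, and without it the log2 fold change of Egr2 was 0.21. Among the alternatives its unadjusted p lay on either side of 0.05. By edgeR it ran from 0.0287 without control replicate 1 to 0.184 without control replicate 3, and it was 0.0413 with total-count scaling. With DESeq2 it was 0.0495 and with limma 0.0887.

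Egr4, the remaining gene of the family, was measured at 104, 102 and 86.9 CPM for WAS 1 to 3 against 87.2, 106 and 70.3 CPM for control 1 to 3. The highest and the lowest library were both labelled control. The log2 fold change was 0.12 with a 95% interval of -0.18 to 0.42 (adjusted p = 0.920 by edgeR), and without control replicate 3 it was -0.013. As a ratio of WAS to control, this interval ran from 0.883 to 1.33.

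Within the Egr family, the shares of reads taken by Egr1, Egr2 and Egr4 were apart between the groups. Egr1 took 64.0%, 61.4% and 65.4% of the reads counted to the 4 Egr genes for WAS 1 to 3, and 68.6%, 70.1% and 67.0% for control 1 to 3. Egr2 took 2.70%, 2.98% and 2.80% against 2.05%, 1.75% and 1.28%, and Egr4 took 14.8%, 14.3% and 11.4% against 9.92%, 11.0% and 8.77%. For each of these 3 genes the shares of the groups did not overlap. The share of Egr3 ran from 17.1% to 23.0% and the groups overlapped. These shares do not depend on the scaling of the libraries, and no test was run on them. They are not independent, because a lower share of Egr1 leaves a larger one for the other genes. As CPM, Egr4 overlapped between the groups. How often such shares lie apart for other genes was not counted.

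Nr4a2 had the largest fold change of the 7 genes, and it rested on 2 libraries. It was measured at 288, 145 and 280 CPM for WAS 1 to 3 against 145, 153 and 145 CPM for control 1 to 3. WAS replicates 1 and 3 had 1.95 and 1.90 times the control mean, while WAS replicate 2 had 0.979 times and was the lowest of all 6 libraries. The groups therefore overlapped. The means were 238 ± 80.6 CPM (SD, n = 3) and 148 ± 4.79 CPM (SD, n = 3), and the log2 fold change was 0.65 (standard error 0.20, 95% interval 0.21 to 1.09, adjusted p = 0.539 by edgeR with Benjamini-Hochberg adjustment). Without WAS replicate 1 the log2 fold change of Nr4a2 was 0.48 and without WAS replicate 3 it was 0.51, and neither reached a fold change of 1.5. The value was 0.91 without WAS replicate 2 (adjusted p = 3.61e-05 by edgeR), and without WAS replicates 1 and 3 together it was -0.071. In the fit without WAS replicate 2, 484 of all 15239 genes tested passed an adjusted p of 0.05, against 0 with all libraries. With limma on quantile-normalized values the log2 fold change of Nr4a2 was 0.60, still above a fold change of 1.5, and its unadjusted p was 0.0783, no longer under 0.05.

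Nr4a3 (NOR-1) was likewise high in WAS replicates 1 and 3. It was at 49.9, 32.1 and 51.3 CPM for WAS 1 to 3 against 37.9, 34.9 and 32.8 CPM for control 1 to 3. WAS replicates 1 and 3 lay above all other libraries, and WAS replicate 2 was the lowest of the 6. The log2 fold change was 0.30 (standard error 0.16, 95% interval -0.051 to 0.65, adjusted p = 0.734 by edgeR with Benjamini-Hochberg adjustment). Without WAS replicate 2 the log2 fold change of Nr4a3 was 0.49 (adjusted p = 0.0312 by edgeR), and without WAS replicate 1 or WAS replicate 3 it was 0.21 and 0.19. The fit without WAS replicate 2 is the one where 484 of all 15239 genes tested passed an adjusted p of 0.05.

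Nr4a1 (Nur77), which of the 3 receptors is the one most used as a marker of acute stimulation, did not follow this order. It was at 62.0, 92.8 and 88.7 CPM for WAS 1 to 3 against 103, 77.6 and 59.8 CPM for control 1 to 3. WAS replicate 1, the highest library for Nr4a2, was the second lowest for Nr4a1. The means were nearly equal at 81.2 ± 16.7 CPM (SD, n = 3) and 80.3 ± 21.9 CPM (SD, n = 3). The log2 fold change was -0.020 with a 95% interval of -0.43 to 0.39 (adjusted p = 0.993 by edgeR), and its sign turned with the scaling, being 0.014 on library totals. As a ratio of WAS to control, its interval ran from 0.742 to 1.31.

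Of the reads counted to the 3 Nr4a genes, Nr4a2 took 72.04%, 53.7% and 66.7% for WAS 1 to 3 against 50.6%, 57.7% and 61.1% for control 1 to 3. The share of Nr4a3 was steadier, at 11.9% to 12.5% in the libraries labelled WAS and 13.1% to 13.8% in those labelled control. The groups did not overlap for the share of Nr4a3, and they overlapped for that of Nr4a2. These shares are also not independent of each other. As CPM, Nr4a3 overlapped between the groups and its log2 fold change was 0.30, opposite in direction to its share. No test was run on these shares.

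**Figure D2:**
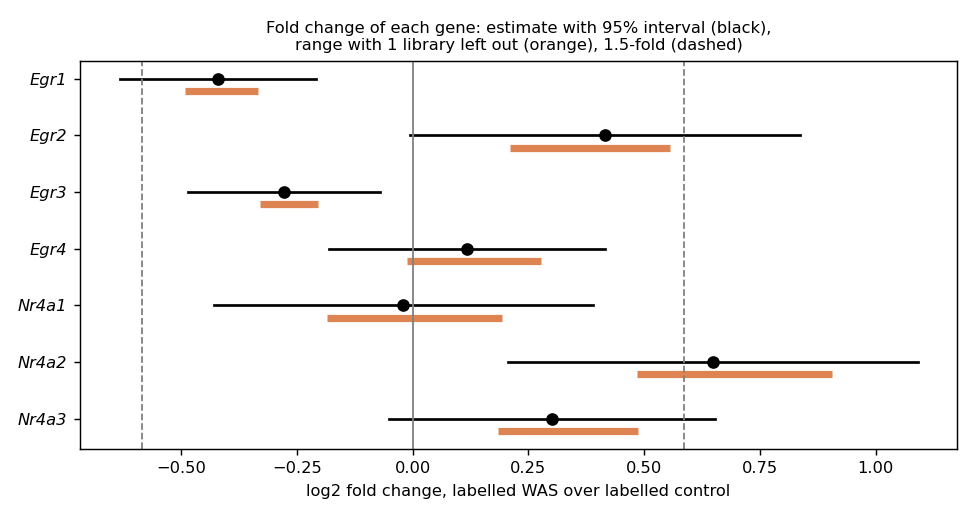
Log2 fold change of each gene for the libraries labelled WAS over those labelled control, with the 95% interval of edgeR's test in black and the range over fits that each left out 1 library in orange. Egr1 and Egr3 lie below 0 and Nr4a2 above it with their whole interval, and the orange range of Nr4a2 reaches from 0.48 to 0.91.

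Markers of some brain regions were high in WAS replicates 1 and 3 as well. The sum of 7 thalamic markers was 562, 284 and 486 CPM for WAS 1 to 3 against 283, 277 and 283 CPM for control 1 to 3, or 2.00, 1.01 and 1.73 times the control mean in the libraries labelled WAS. Tcf7l2, a transcription factor of thalamus and habenula, was at 234, 42.0 and 173 CPM against 36.6, 20.6 and 38.4 CPM and made up much of this ratio. Without it, a choice made after seeing the data, the other 6 markers summed to 1.32, 0.973 and 1.25 times the control mean for WAS 1 to 3. Ramp3 and Synpo2 were not high in both WAS replicates 1 and 3, with Ramp3 at 33.7, 20.5 and 24.8 CPM against 25.1, 28.9 and 27.0 CPM. Of the 7 thalamic markers, 3 had an unadjusted p under 0.05 and were higher in the libraries labelled WAS, 0 were lower, and the median log2 fold change was 0.50 beside 0.00088 for all genes tested. Leaving out WAS replicate 3 gave a median of 0.31, and leaving out WAS replicate 1 gave 0.80. The count of higher genes was 5 without WAS replicate 2, 2 without WAS replicate 3 or control replicate 2, and 1 with limma. Without WAS replicate 2, 484 of all 15239 genes tested passed an adjusted p of 0.05 by edgeR, among them 3 of the 7 thalamic markers. Without WAS replicates 1 and 3 together, 0 were higher and 1 lower.

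Midbrain dopamine neurons express Nr4a2 without stimulation, and the other 9 markers of these neurons summed to 249.5, 129.9 and 340 CPM for WAS 1 to 3 against 89.3, 53.1 and 172 CPM for control 1 to 3. Dlk1, which is also made by other cells, was the largest part of the sums in the libraries labelled WAS, at 134, 78.2 and 181 CPM against 43.1, 11.6 and 131 CPM, with an unadjusted p of 0.105 by edgeR. Of the 9, 8 were tested, 6 had an unadjusted p under 0.05 and were higher in the libraries labelled WAS, and their median log2 fold change was 1.67. With limma 3 were higher, and without WAS replicates 1 and 3 together 1 was higher, with a median of 0.17. Without WAS replicate 2, 6 of the 8 passed an adjusted p of 0.05 by edgeR, where 484 of all 15239 genes tested did. Th, the rate-limiting enzyme of dopamine synthesis, was at 7.45, 4.65 and 14.6 CPM against 1.24, 1.83 and 3.41 CPM. Slc6a3, the dopamine transporter, had 107 counts in WAS replicate 1 and 100 in WAS replicate 3, and 0 to 3 counts in each of the other 4 libraries. En1, a midbrain homeobox gene, was at 12.3, 0.108 and 15.7 CPM in the libraries labelled WAS and had 0 counts in each of those labelled control. Pitx3 was at or near 0 in all libraries. Up to 3 of the 9 markers had no count in a library.

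Dentate gyrus markers summed to 92.8, 11.1 and 57.7 CPM for WAS 1 to 3 against 33.7, 8.38 and 12.2 CPM for control 1 to 3, and 2 of the 5 had an unadjusted p under 0.05, both higher. For the 9 striatal markers given above, 8 were tested and 0 had an unadjusted p under 0.05, with a median log2 fold change of -0.53. Drd2 had no count in 5 of the 6 libraries. Markers of claustrum and cortical layer 6b, where Nr4a2 is also expressed, summed to 142, 235 and 228 CPM against 171, 205 and 189.7 CPM, an order unlike that of Nr4a2. Among markers of astrocytes, 1 of 6 was higher at an unadjusted p under 0.05, and 0 were among those of oligodendrocytes, microglia, endothelium, choroid plexus, red blood cells, hypothalamus and olfactory bulb. Hindbrain markers summed to 18.5, 0.433 and 37.9 CPM for WAS 1 to 3 against 4.09, 1.93 and 1.604 CPM for control 1 to 3, also high in WAS replicates 1 and 3, with 4, 8 and 0 of the 10 genes at 0 in the libraries labelled WAS. Gata3 alone was at 15.9, 0 and 14.3 CPM against 2.48, 0.867 and 0.1002 CPM. At an unadjusted p under 0.05, 1 of the 2 hindbrain and 1 of the 4 cerebellar markers tested were higher. The part of regional composition in the values of Nr4a2 and Nr4a3 was not tested.

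Egr1 and Egr3 are expressed in many forebrain excitatory neurons, and markers of those cells were also lower in the libraries labelled WAS. The 7 cortical projection neuron markers summed to 767, 781 and 728 CPM for WAS 1 to 3 against 896, 947 and 832 CPM for control 1 to 3, without overlap. Each of the 7 had a log2 fold change below 0 (median -0.27), and 3 had an unadjusted p under 0.05. General neuron markers were lower too, with sums of 5072, 5584 and 5217 CPM against 5910, 6364 and 5748 CPM and 2 of 6 genes at an unadjusted p under 0.05. The part of these cells in the values of Egr1 and Egr3 was not tested.

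**Figure D3:**
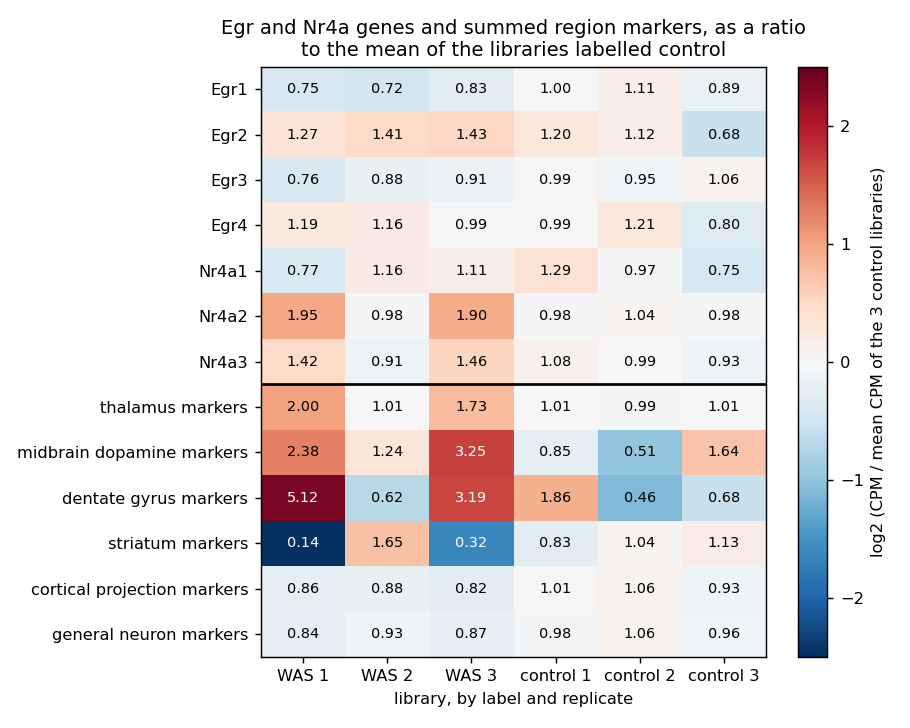
CPM of each Egr and Nr4a gene and summed CPM of region markers in each library, as a ratio to the mean of the 3 libraries labelled control (number in each cell, colour on a log2 scale). The rows of Nr4a2 and of the thalamic markers read 1.95, 0.98 and 1.90 and 2.00, 1.01 and 1.73 in WAS replicates 1, 2 and 3, the latter 1.32, 0.973 and 1.25 without Tcf7l2.

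Among 9393 tested genes with a mean of at least 10 CPM, the profiles closest to each gene were found by the root-mean-square (RMS) difference of centred log2 CPM over the 6 libraries. Closest to Nr4a2 were Resp18 (RMS 0.077), which encodes a neuroendocrine secretory granule protein, Ank1 (0.098), which encodes an ankyrin, and Nefh (0.11), the heavy neurofilament of large projection axons. Nefh was at 189, 83.3 and 177 CPM for WAS 1 to 3 against 102, 92.5 and 103 CPM for control 1 to 3. Closest to Nr4a3 were Gpr22, Napepld and Kcnj10 (RMS 0.056 to 0.058), the last of which encodes the inward rectifier Kir4.1 of astrocytes. Kcnj10 was at 96.9, 66.0 and 96.0 CPM against 80.7, 70.8 and 65.6 CPM.

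For Egr1 the closest were Nell1, Slc7a1 and Tmem200a (RMS 0.066 to 0.080), and Slc7a1, an arginine and lysine transporter, was at 44.8, 41.2 and 46.0 CPM for WAS 1 to 3 against 56.3, 58.4 and 45.7 CPM for control 1 to 3. Closest to Egr3 were Rgcc, Smg5 and Rasa2 (0.035 to 0.046), to Egr4 Iffo1, Xrn1 and Galntl6 (0.052 to 0.056), to Nr4a1 Ttc8, Sbno2 and Stk11ip (0.082 to 0.093) and to Egr2 Zfp12, Phyhd1 and Dck (0.13 to 0.14). Between the 7 genes themselves, the closest pairs were Egr1 with Egr3 (0.17) and Nr4a2 with Nr4a3 (0.20), and the most distant was Nr4a1 with Nr4a2 (0.59).

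The proteins that work with Egr factors were measured beside them. Nab1 and Nab2, the corepressors, had log2 fold changes of 0.014 and 0.12 (standard errors 0.11 and 0.11) with overlapping groups. Nab2 is itself induced by Egr proteins, and it was at 44.9, 48.0 and 41.0 CPM for WAS 1 to 3 against 39.7, 43.5 and 37.0 CPM for control 1 to 3. Of the 8 corepressor and target genes, 1 was higher and 1 lower at an unadjusted p under 0.05, and the median log2 fold change was -0.021. Without WAS replicate 2, 1 was higher and 3 lower, and 2 of these passed an adjusted p of 0.05 by edgeR, where 484 of all 15239 genes tested did. Without control replicate 2 or with limma 0 were lower, without control replicate 3 there were 2 higher, and without WAS replicates 1 and 3 together 0 were higher or lower. With all libraries, the synaptic vesicle genes Syn1 and Syn2 were the lower and the higher gene. Syn1 was at 157, 158 and 156 CPM against 175, 191 and 174 CPM, and Syn2 at 225, 191 and 224 CPM against 158, 179 and 167 CPM. For Arc, whose RNA moves to active dendrites, the difference was -0.056 on the log2 scale (SE 0.12). For Cdk5r1, which encodes the p35 activator of Cdk5, it was -0.11 (SE 0.094).

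The retinoid X receptors, with which Nr4a1 and Nr4a2 can pair, did not pass the test. Rxrg, the striatal member, was at 5.07, 41.5 and 8.21 CPM for WAS 1 to 3 against 20.7, 30.1 and 26.1 CPM for control 1 to 3, lowest in WAS replicates 1 and 3 like the striatal markers. For Rxra and Rxrb the log2 differences were 0.18 and -0.060 (SE 0.20 and 0.13).

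Of 27 genes of the upstream pathway, covering SRF and its partners, CREB and its coactivators, MEF2 factors and their kinases, 0 stood higher and 3 lower under the label WAS at an unadjusted p under 0.05, with a median log2 fold change of -0.063. The 3 were Mef2c, Mkl2 and Camk4. Without WAS replicate 2, 4 of the 27 passed an adjusted p of 0.05 by edgeR, in place of 0, where 484 of all 15239 genes tested did. Without WAS replicates 1 and 3 together the median log2 fold change of the 27 was 0.071. Mef2c, a factor of cortical excitatory neurons, was at 1884, 2041 and 1651 CPM for WAS 1 to 3 against 2549, 2545 and 2118 CPM for control 1 to 3 (log2 fold change -0.41, standard error 0.098, adjusted p = 0.477 by edgeR). Mkl2, an SRF coactivator, was at 155, 201 and 164 CPM against 214, 225 and 212 CPM. Srf and Creb1 themselves had log2 fold changes of -0.076 and 0.040 (standard errors 0.11 and 0.082).

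Other immediate early genes went in both directions, as the Egr and Nr4a genes did. Of 35 listed, 34 were tested, and the list was chosen with earlier results of these data known. At an unadjusted p under 0.05, 8 of the 34 stood higher and 4 lower under the label WAS, against 3.85% and 3.4% of all genes tested. With all libraries 0 of the 34 passed an adjusted p of 0.05 by edgeR. Without WAS replicate 2, 5 of the 34 passed it, where 484 of all 15239 genes tested did. The median log2 fold change of the 34 was -0.021. The 8 were Jun, Junb and Fos, which form the AP-1 factor, Npas4, a neuron-specific factor induced by calcium, and Klf2, Klf4, Btg2 and Gadd45g. Fos was at 37.3, 32.8 and 45.7 CPM for WAS 1 to 3 against 31.1, 32.8 and 25.3 CPM for control 1 to 3, and Npas4 at 11.3, 9.62 and 12.4 CPM against 8.38, 8.96 and 5.81 CPM. The 4 lower genes were Klf10, Homer1, Ier5 and Plk3. Klf10, a Krüppel-like factor induced by TGF-beta, was the only gene of the lists of partners, upstream and early genes that met both the p and the fold change of 1.5, at 24.8, 45.2 and 32.6 CPM against 54.5, 66.1 and 36.3 CPM. Klf4 was at 38.7, 23.0 and 38.7 CPM for WAS 1 to 3 against 23.4, 23.2 and 23.7 CPM for control 1 to 3, so that WAS replicates 1 and 3 stood apart as they did for Nr4a2. The number of higher genes ranged from 2 without control replicate 3 to 11 without WAS replicate 2, with 3 without WAS replicate 3, 4 without WAS replicate 1 and 5 without control replicate 1. It was 0 without WAS replicates 1 and 3 together and 2 with limma on quantile-normalized values. The number of lower genes was 2 without control replicate 2 and 1 with limma.

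**Figure D4:**
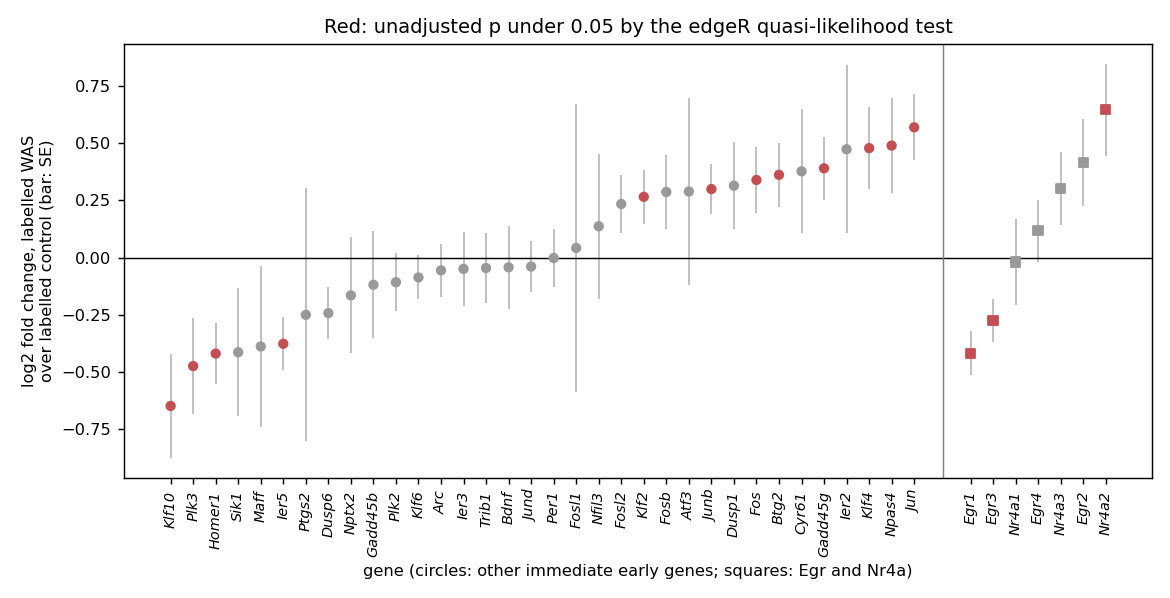
Log2 fold change of 34 other immediate early genes (circles) and of the Egr and Nr4a genes (squares), sorted within each set, with the standard error as a bar and red for an unadjusted p under 0.05 by edgeR's test. Red points lie on either side of 0 in each set, from Klf10 at -0.65 to Jun at 0.57 among the circles.

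Genes that glucocorticoids induce were also looked at. They cannot check the stress label, because the time of sampling is uncertain and no home-cage mice are among the samples. Of 14 such genes, 10 had a log2 fold change above 0 and 4 below, with a median of 0.067. At an unadjusted p under 0.05, 0 of the 14 stood higher and 1 lower under the label WAS, against 3.85% and 3.4% of all genes tested. Fkbp5, a chaperone of the glucocorticoid receptor, was at 33.6, 35.8 and 32.4 CPM for WAS 1 to 3 against 26.3, 32.6 and 29.3 CPM for control 1 to 3, and Sgk1, a kinase, at 119, 131 and 123 CPM against 127, 111 and 119 CPM. Klf9 was the lower gene, by -0.27 on the log2 scale (standard error 0.11).

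The spread between mice was larger for some of the genes than their level would give. In edgeR's fit the biological coefficient of variation, the variation between mice beyond counting error, was 18.0% for Nr4a2 and 16.6% for Nr4a1, where the trend at the same abundance was 10.8% and 10.7%. It was 16.0% for Egr2 (trend 14.3%), 14.1% for Nr4a3 (trend 11.6%) and 12.6% for Egr4 (trend 10.7%). Egr1 and Egr3 varied less than the trend, with 10.5% against 11.3% and 9.74% against 10.8%. In the control libraries alone, the coefficient of variation of the CPM was 3.24% for Nr4a2, 5.72% for Egr3, 7.32% for Nr4a3 and 11.3% for Egr1, and it was 20.2%, 27.3% and 27.9% for Egr4, Nr4a1 and Egr2. Counting error alone would give between 1.36% for Egr1 and 7.495% for Egr2.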

How the data were processed

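Per the study's methods, QuantSeq 3′ mRNA libraries were sequenced as single-end reads, aligned with Bowtie2, and unique and multiple alignments were counted per gene with Bedtools. The submitters' processing notes name the build mm10, and the annotation is not given in the sources used here. The deposited values are raw read counts, without the quantile normalization that the authors applied later. Multiple alignments can place a read in several genes. At the 3′ end (last 500 bases of the longest transcript in GENCODE M21), none of the 7 genes shared a stretch of 50 bases with another gene, and no annotated gene overlapped them. In GRCm38, Egr2 lies at chr10:67535475-67542188, Egr3 at chr14:70077203-70082614, Egr4 at chr6:85511121-85513589, Nr4a1 at chr15:101254269-101274795, Nr4a2 at chr2:57106830-57124003 and Nr4a3 at chr4:48045153-48086447.

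Counts were tested with edgeR 4.0.16 in R 4.3.3 (TMM scaling, quasi-likelihood test, no block) on genes with a mean log2(quantile-normalized count + 1) of at least 2. Adjusted p-values are Benjamini-Hochberg over 15239 genes, and tests are two-sided. Standard errors were obtained as log2 fold change over the root of the F statistic. A prior count of 2 was used for log2 CPM. DESeq2 1.42.0 and limma 3.58.1 were alternatives, as were total-count scaling, 2 other filters, a replicate block and each library left out. The fit without WAS replicates 1 and 3, the thalamic sum without Tcf7l2 and the list counts under each alternative were chosen after seeing the data. The procedure was tested on simulated data. The sample titles name each library a biological replicate (biol rep). The 7 genes and the lists were chosen with earlier results of these data known. Named are the 7 genes, for each the 3 closest profiles, and, within the lists, the 2 genes with the most counts plus any gene that met p and fold. Other list genes, such as Fos, Npas4, Srf, Nab2 and Fkbp5, were named for their known role or after their values were seen, and some genes under this rule are given only in counts. The counting intervals of CPM values cover counting error only, because the reads carry no molecular identifiers. The intervals of log2 fold changes come from edgeR's fit and also include the variation between libraries.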

Additional observations from a re-analysis of the deposited data

How the results depend on the processing

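The 7 genes had 102 to 6993 counts in a library, so that counting error was a limit mainly for Egr2. Egr1, Egr2, Egr3, Nr4a2 and Nr4a3 kept their direction in all 12 alternative fits, Egr4 in 11 and Nr4a1 in 8. Where a value moved, the cause was not tested. With DESeq2, 22 genes in all passed an adjusted p of 0.05, 1 of them among the 7 (Egr1, log2 fold change -0.42), in place of 0. With limma on quantile-normalized log2 counts, 0 of the 7 genes and 0 genes of the partner, upstream, early and glucocorticoid lists met p and fold, in place of 1 each (Nr4a2 and Klf10), and with total-count scaling 2 genes of those lists did. Nr4a1 turned to 0.014 with total-count scaling and to 0.0012 with limma. Without WAS replicates 1 and 3, where the lone WAS library is assumed to vary like the controls, Nr4a1 was at 0.17, Nr4a2 at -0.071 and Nr4a3 at -0.17. With 1 library left out, genes past the adjusted p ran from 0 to 484 and genes meeting p and fold from 261 to 831, against 0 and 380 with all libraries, the highest of both without WAS replicate 2. Of the 7 genes, 0 to 2 passed the adjusted p and 0 to 1 met p and fold, and of the other lists 1 to 7 genes met p and fold. The log2 fold changes then ran from -0.013 to 0.28 for Egr4, -0.19 to 0.19 for Nr4a1, 0.48 to 0.91 for Nr4a2 and 0.19 to 0.49 for Nr4a3. Library totals and TMM scaling each gave 3 genes without overlap between groups.

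The labels give both groups replicate numbers 1 to 3. Deviations of same-numbered libraries from their group means correlated at 0.066, 0.085 and 0.087 over genes, each library best with its own number but none above 0.1, so the numbers were not taken as pairs. With the replicate number as a block, 49 genes passed the adjusted p in place of 0, 0 of them among the 7. Among the listed genes, 3 thalamic, 3 midbrain dopamine and 1 upstream gene then passed it, in place of 0 each, and 2 genes of the partner, upstream, early and glucocorticoid lists met p and fold in place of 1.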
